A study of Mus musculus with 12 samples.

Results

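The cholesterol and fatty acid synthesis genes were read from RNA sequencing of bone marrow-derived macrophages (BMDMs), macrophages grown in culture from mouse bone marrow. The set was a list of 33 named genes, kept where the mean was 10 or more counts over the 12 libraries, and all 33 of the 35275 genes in the count files met this. They comprised 18 sterol synthesis enzyme genes, 5 regulator and transport genes and 10 fatty acid synthesis genes. The study asked how PARP inhibition changes macrophages that are polarized toward an M2 phenotype. All cultures came from wildtype mice whose strain is not given in the labels, and all received the cytokines IL4, IL10 and MCSF. The 3 groups were DMSO, the solvent, olaparib, a PARP inhibitor, and MNA, which the study names methyl-nicotinamide, a product of nicotinamide metabolism. Each group had 4 libraries, and each treatment lasted 6 days. The labels give no doses, and 1 bulk RNA sample per culture cannot tell fewer cells of a type from less RNA per cell.

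Cholesterol is built from acetyl-CoA through mevalonate, squalene and lanosterol, and fatty acids are built from acetyl-CoA through malonyl-CoA before they are elongated and desaturated. The transcription factors SREBP2 (Srebf2) and SREBP1 (Srebf1) switch on these genes after SCAP carries them from the endoplasmic reticulum to the Golgi, and INSIG proteins hold SCAP back when sterols are plentiful. In macrophages, sterol and fatty acid supply sets membrane composition and the pool of oxysterols, which act on the nuclear receptor LXR.

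The libraries held 21146291 to 31446849 counts on genes, and the depths of the 3 groups overlapped. MNA replicate 2 stood apart from the other MNA libraries and lay with the DMSO libraries on the first principal component, which held 49.8% of the variance. Its level lay inside the range of the DMSO libraries for 24 of the 33 genes and inside the range of the other 3 MNA libraries for 0, and it was nearer to the DMSO mean for 33 of 33. It kept its label. The counts of calls are given with and without it, and the genes whose call changed without it are named. The macrophage markers were expressed in every library, with a summed level of 5557 to 7607 CPM, the count of a gene scaled to a common library size after TMM normalization, in DMSO, 10243 to 13311 in olaparib and 5048 to 8030 in MNA over 11 of 11 genes. These sums hid opposite moves of single genes. Lyz2 had 47220 to 54071 counts in DMSO and 130160 to 180146 in olaparib, and Cd68 23356 to 41007 and 20646 to 23778. In MNA replicates 1, 3 and 4, Csf1r had 40997 to 47615 counts, against 12658 to 16934 in DMSO. Mrc1 had 3197 to 4503 there, against 15560 to 24733, and Fcgr1 3 to 10, against 12 to 39. Arg1, an M2 marker, had 12630 to 18681 counts in DMSO, 10016 in MNA replicate 2 and 269 to 315 in the other MNA libraries. Neutrophil markers (9 genes) summed to 68.3 CPM and erythroid markers (5 genes) to 50.4 CPM in MNA replicate 4, against at most 10.6 and 3.09 CPM in any other library. B cell markers (5 genes) summed to 0.234 to 1.78 CPM in DMSO and 3.26 to 6.56 in MNA replicates 1, 3 and 4. The dendritic cell list (6 genes) was mixed. Ccr7 had 1 to 12 counts in DMSO and 139 to 258 in those MNA libraries, while Xcr1 had 26 to 69 and 14 to 24. The eosinophil list (4 genes) rested on Siglecf, with 863 to 1478 counts in olaparib, while Epx and Prg2 were at 0 there. Markers of cycling cells (8 genes) summed to 272 to 332 CPM in DMSO and 416 to 512 in olaparib. In MNA they summed to 293 CPM in replicate 2 and 497 to 524 in the other libraries. Most of this sum was Pcna. It had 5217 to 6907 counts in DMSO, 8017 to 9514 in olaparib and 8505 to 10036 in MNA replicates 1, 3 and 4. Mki67 had 164 to 349 counts in DMSO, 455 to 1124 in olaparib and 638 to 1027 in those MNA libraries. Top2a had 327 to 659 counts in DMSO, 505 to 1326 in olaparib and 707 to 1054 in the same MNA libraries. Mcm2 went the other way with MNA, from 463 to 714 counts in DMSO to 398 to 482 in those MNA libraries. At an edgeR adjusted p under 0.05, 4 of the 8 were higher and 0 lower with olaparib (14.3% and 12.8% of all tested genes). With MNA 3 were higher and 0 lower (16.3% and 12.3%). Without MNA replicate 2 these counts were 7 and 0 with olaparib (22.5% and 21.2%) and 5 and 1 with MNA (27.2% and 26.9%). The part of these genes in the results below was not tested.

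Levels between genes were compared per length, as RPKM (TMM-normalized CPM divided by the kilobases of exon of the gene), over the 4 DMSO libraries. The highest was Scd2, a stearoyl-CoA desaturase, at 103 RPKM, followed by Acly, which makes cytosolic acetyl-CoA from citrate, at 40.7 and Insig1 at 32.3. Among the sterol enzymes the highest were Ebp, a sterol isomerase, at 16.6 RPKM, Dhcr7, which makes cholesterol from 7-dehydrocholesterol, at 13.4 and Hmgcs1 at 12.1. The lowest of all were Fads2, the delta-6 desaturase, at 0.152, Elovl6, a fatty acid elongase, at 0.362 and Tm7sf2, a sterol reductase, at 0.410. Fads2 rested on 5 to 31 counts per DMSO library.

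Because most sterol genes moved together with MNA, their promoters were searched for the letters of 3 known elements, on both strands, from 250 bases before to 50 after the RefSeq start. RefSeq (GRCm38.p6) held 33 promoters for 26 of the 33 genes. Fads1, Fdft1, Fdps, Scd1, Scd2, Sqle and Stard4 were not in the table. CCAAT, the box read by NF-Y, a partner of SREBP at many lipid genes, was in 22 of the 33 promoters and in 37.41% of all 32851 promoters. By gene, with a match in any of its promoters, it was in 14 of 15 sterol enzymes, 3 of 4 regulator and transport genes and 4 of 7 fatty acid genes. The 37.41% counts promoters, so it is no base for these counts by gene. TCACNCCAC, a sterol regulatory element, was in 1 of the 33 promoters, that of Hmgcs1, and in 1.242% of all promoters. CACGTG, the E-box that SREBP1 can also bind, was in 6 of the 33 and in 7.15% of all. The 6 belonged to 5 genes, since the overlapping promoters of Scap hold the same site. These matches are descriptions of letters and were not tested for binding.

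The 250 bases before the start are printed for 6 genes, 5′ to 3′ on the strand of the gene, with every match to the 3 elements in capitals (ATTGG is CCAAT on the other strand). Hmgcs1 (chr13:119690101-119690350, plus strand), Mvk (chr5:114444019-114444268, plus), Mvd (chr8:122443423-122443672, minus), Sc5d (chr9:42264301-42264550, minus) and Fasn (chr11:120824548-120824797, minus) were higher with MNA. Ebp (chrX:8193513-8193762, minus) is shown beside them because it carries the same letters and was not called. In Fasn a CCAAT and an ATTGG overlap.
Hmgcs1: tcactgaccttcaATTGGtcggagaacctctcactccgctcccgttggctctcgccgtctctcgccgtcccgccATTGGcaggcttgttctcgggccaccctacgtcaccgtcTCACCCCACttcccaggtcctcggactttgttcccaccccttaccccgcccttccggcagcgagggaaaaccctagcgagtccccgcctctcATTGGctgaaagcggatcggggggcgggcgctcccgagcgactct
Mvk: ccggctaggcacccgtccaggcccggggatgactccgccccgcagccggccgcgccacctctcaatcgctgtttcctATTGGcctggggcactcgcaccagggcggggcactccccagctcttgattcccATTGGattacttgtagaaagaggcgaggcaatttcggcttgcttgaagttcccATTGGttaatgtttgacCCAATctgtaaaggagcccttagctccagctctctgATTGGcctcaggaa
Mvd: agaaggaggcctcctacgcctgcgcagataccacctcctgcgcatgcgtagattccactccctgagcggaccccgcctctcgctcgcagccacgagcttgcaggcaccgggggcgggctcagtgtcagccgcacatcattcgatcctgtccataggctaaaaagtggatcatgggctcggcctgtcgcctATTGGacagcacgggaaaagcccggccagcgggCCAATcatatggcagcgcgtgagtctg
Sc5d: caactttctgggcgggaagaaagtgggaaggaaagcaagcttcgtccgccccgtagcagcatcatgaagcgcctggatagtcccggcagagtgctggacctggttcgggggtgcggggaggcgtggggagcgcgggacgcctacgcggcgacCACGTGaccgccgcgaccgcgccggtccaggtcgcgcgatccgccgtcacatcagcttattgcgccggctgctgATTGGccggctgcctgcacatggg
Fasn: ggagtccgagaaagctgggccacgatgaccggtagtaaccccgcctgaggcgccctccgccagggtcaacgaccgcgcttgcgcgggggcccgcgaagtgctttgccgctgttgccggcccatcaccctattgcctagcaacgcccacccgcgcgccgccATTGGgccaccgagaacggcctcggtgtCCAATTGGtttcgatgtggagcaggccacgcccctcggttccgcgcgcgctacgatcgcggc
Ebp: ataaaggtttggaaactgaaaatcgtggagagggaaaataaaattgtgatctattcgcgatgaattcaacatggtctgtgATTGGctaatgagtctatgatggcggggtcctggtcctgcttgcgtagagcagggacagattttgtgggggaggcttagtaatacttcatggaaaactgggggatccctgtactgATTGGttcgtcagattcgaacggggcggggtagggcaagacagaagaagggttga
Hmgcs1 held a single sterol regulatory element, whose first base lay at -137 from the start, with 3 CCAAT boxes in the bases shown. Mvk held 5 CCAAT boxes, Mvd 2, Fasn 3 and Ebp 2, and Sc5d held 1 beside an E-box at -98.

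Most sterol synthesis genes rose with MNA. With all 12 libraries in 1 edgeR quasi-likelihood fit, 24 of the 33 genes were called higher and 1 lower than DMSO at a Benjamini-Hochberg adjusted p under 0.05, where 16.3% of all 12849 tested genes were called higher and 12.3% lower. The sterol synthesis enzymes gave 16 higher and 1 lower of 18, the regulator and transport genes 3 higher and 0 lower of 5, and the fatty acid genes 5 higher and 0 lower of 10. The median log2 fold change was 1.23 for the sterol enzymes, 0.63 for the regulator and transport genes, 0.35 for the fatty acid genes and 0.00020 for all tested genes. Without MNA replicate 2, the calls were 27 higher and 2 lower, where 27.2% of genes were called higher and 26.9% lower, and the sterol median was 1.47. In a fit of the MNA and DMSO libraries alone, 0 genes of all tested (0%) and 0 of the 33 were called by edgeR, with 4728 genes and 28 of the 33 at an unadjusted p under 0.05 and a smallest adjusted p of 0.0640 among the 33. All 4 MNA libraries lay above all DMSO libraries for 4 of the 33 genes and below for 1, and without MNA replicate 2 for 27 and 2, where 6.24% and 6.12%, and then 27.2% and 27.2%, of all genes did so.

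**Figure D1:**
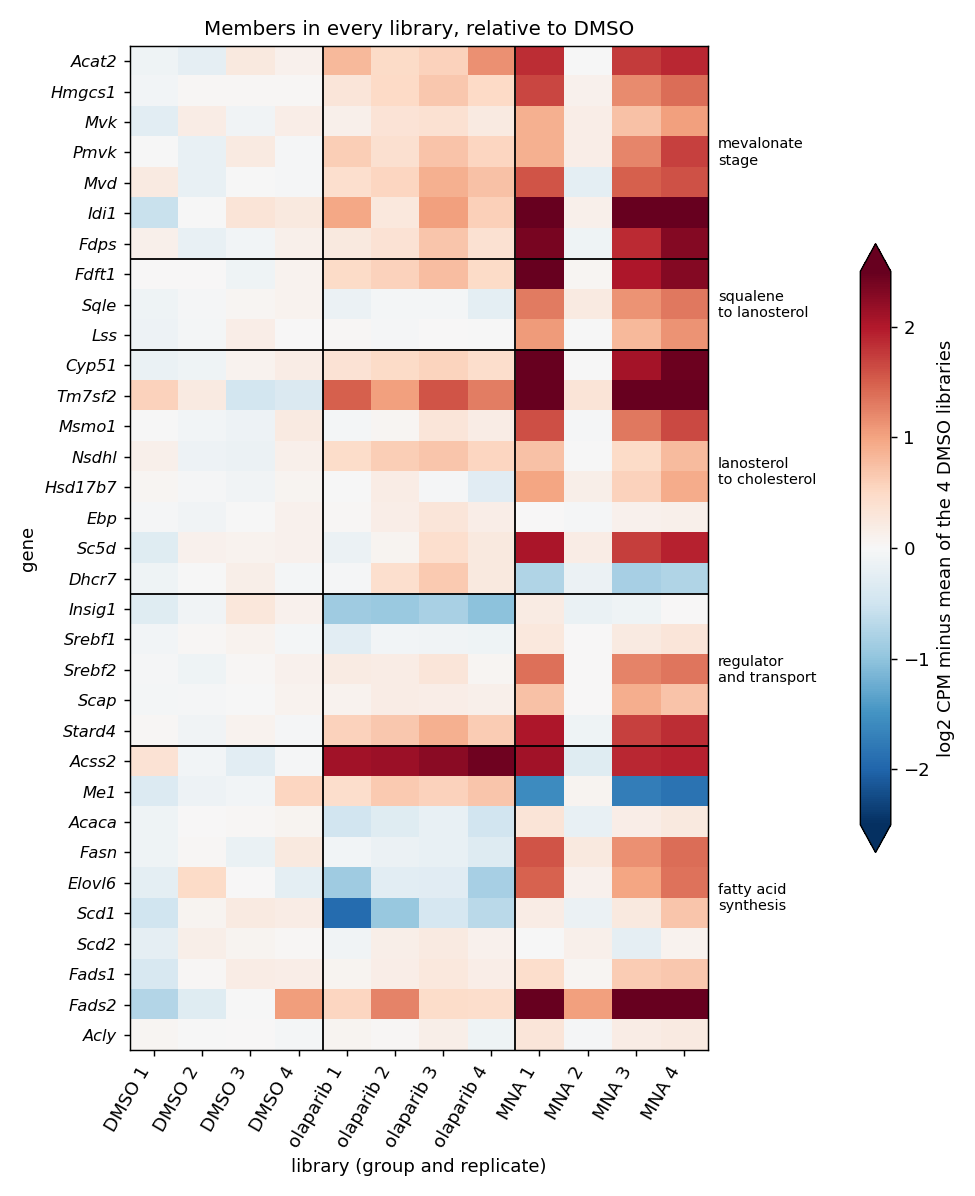
Heat map of the 33 genes (rows, grouped by role) in the 12 libraries (columns), coloured by log2 CPM minus the mean of the 4 DMSO libraries; the colour scale ends at 2.5 in each direction. MNA replicates 1, 3 and 4 are red over most sterol genes, MNA replicate 2 resembles DMSO, and the olaparib libraries are pale red over the mevalonate stage and blue at Insig1 and Scd1.

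The 7 mevalonate-stage genes, which turn acetyl-CoA into farnesyl diphosphate, were 7 of 7 called higher with MNA, with log2 fold changes of 0.73 to 2.71. Hmgcs1, HMG-CoA synthase, was at 52.6, 56.6, 56.3 and 56.3 CPM in DMSO replicates 1 to 4, at 68.4, 78.1, 88.4 and 78.2 in olaparib and at 177, 59.9, 125 and 145 in MNA. All 4 olaparib and all 4 MNA libraries lay above all DMSO libraries, MNA replicate 2 by the least. Its log2 fold change was 1.19 ± 0.24 (SE, adjusted p = 0.0142) for MNA and 0.50 ± 0.24 (adjusted p = 0.133) for olaparib, which became 1.43 ± 0.10 and 0.49 ± 0.10 without MNA replicate 2, both called. The largest change of this stage was that of Idi1, isopentenyl diphosphate isomerase, from 2.16 ± 0.557 CPM (SD, n = 4) in DMSO to 14.3 ± 9.24 in MNA (log2 2.71 ± 0.53, adjusted p = 0.0142). Fdps, farnesyl diphosphate synthase, rose by 1.87 ± 0.38 on the log2 scale, and Acat2, the first thiolase of the pathway, by 1.54 ± 0.33. Mvd and Mvk, which act on mevalonate and its phosphates, rose by 1.27 ± 0.31 and 0.73 ± 0.17, and Pmvk by 1.10 ± 0.26. Idi1, Fdps and Hmgcs1 stayed called with MNA whichever library was left out, but only just, with a highest adjusted p of 0.0488 for each. Acat2 and Pmvk lost the call without MNA replicate 3 or 4, and Mvk and Mvd without MNA replicate 1, 3 or 4. With olaparib these 7 genes were not called with all libraries, and 6 were called without MNA replicate 2, all but Mvk.

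The 3 genes from squalene to lanosterol were also called higher with MNA. Fdft1, squalene synthase, was at 4.73, 4.71, 4.32 and 4.95 CPM in DMSO, 6.50, 6.99, 7.99 and 6.58 in olaparib and 26.8, 4.84, 19.3 and 23.4 in MNA. The MNA and DMSO libraries overlapped through MNA replicate 2 alone, and the olaparib libraries lay above DMSO without overlap. The change was 1.99 ± 0.38 (log2, adjusted p = 0.0142) with MNA and 0.58 ± 0.37 (adjusted p = 0.258) with olaparib, which was called without MNA replicate 2 (0.58 ± 0.12, adjusted p = 0.00138). Sqle, squalene epoxidase, was at 34.3, 36.2, 38.4 and 39.0 CPM in DMSO, 33.3, 35.7, 35.8 and 31.2 in olaparib and 90.6, 43.1, 80.5 and 91.8 in MNA. All 4 MNA libraries lay above DMSO, while olaparib and DMSO overlapped. It rose by 1.05 ± 0.18 (log2, adjusted p = 0.0142) with MNA, and its change with olaparib was -0.12 ± 0.18 (adjusted p = 0.644). Lss, lanosterol synthase, rose by 0.81 ± 0.19 with MNA (adjusted p = 0.0168), which was lost without MNA replicate 1, 3 or 4.

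From lanosterol to cholesterol, 6 of 8 genes were called higher with MNA and 1 lower. Cyp51, lanosterol demethylase, rose from 13.6 ± 1.55 to 57.4 ± 31.4 CPM (log2 2.07 ± 0.40, adjusted p = 0.0142), and its 0.46 ± 0.39 with olaparib was called only without MNA replicate 2 among the fits with 1 library left out (0.45 ± 0.11, adjusted p = 0.00568). Tm7sf2, a sterol delta-14 reductase, was at 2.63, 2.03, 1.24 and 1.33 CPM in DMSO, 5.02, 3.61, 5.30 and 4.32 in olaparib and 11.9, 2.18, 11.8 and 13.2 in MNA. Every olaparib library and every MNA library but replicate 2 lay above DMSO. Its log2 fold change was 2.44 ± 0.46 with MNA (adjusted p = 0.0142) and 1.35 ± 0.45 with olaparib (adjusted p = 0.0439), and the olaparib call was lost in 9 of the 12 fits with 1 library left out. Nsdhl, a sterol dehydrogenase, was at 20.95, 17.7, 17.5 and 21.1 CPM in DMSO, 26.4, 29.4, 31.2 and 28.0 in olaparib and 32.2, 19.1, 27.0 and 33.4 in MNA. It was called higher with olaparib (0.57 ± 0.15, adjusted p = 0.0157) and with MNA (0.53 ± 0.15, adjusted p = 0.0256). The MNA call of Nsdhl held in 7 of the 12 fits with 1 library left out and not without DMSO replicates 2 or 3 or MNA replicates 1, 3 or 4 (highest adjusted p = 0.0823). Sc5d, Msmo1 and Hsd17b7, which also act between lanosterol and cholesterol, rose with MNA by 1.62 ± 0.31, 1.26 ± 0.27 and 0.70 ± 0.17. The call of Msmo1 was lost without MNA replicate 4 and that of Hsd17b7 without MNA replicate 1, 3 or 4.

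The other 2 genes of this stage were Dhcr7 and Ebp. Dhcr7 was called lower with MNA, at 78.2 ± 6.25 CPM in DMSO and 51.8 ± 12.3 in MNA (log2 -0.60 ± 0.16, adjusted p = 0.0238), and at 45.6 ± 1.31 in the 3 MNA libraries other than replicate 2 (log2 -0.78 ± 0.12). Dhcr7 was no longer called on leaving out any 1 of DMSO replicates 2 and 3 and MNA replicates 1, 3 and 4, with a highest adjusted p of 0.0750. With olaparib it was at 98.9 ± 19.3 CPM (0.34 ± 0.16, adjusted p = 0.133), which was called without MNA replicate 2 (0.34 ± 0.11, adjusted p = 0.0232). Ebp was at 37.5, 36.2, 38.3 and 41.6 CPM in DMSO, 39.0, 42.9, 47.4 and 43.3 in olaparib and 38.5, 37.4, 41.5 and 41.9 in MNA. The 3 groups overlapped, and Ebp was called in neither comparison (MNA 0.05 ± 0.07, adjusted p = 0.593, and olaparib 0.17 ± 0.07, adjusted p = 0.101).

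**Figure D2:**
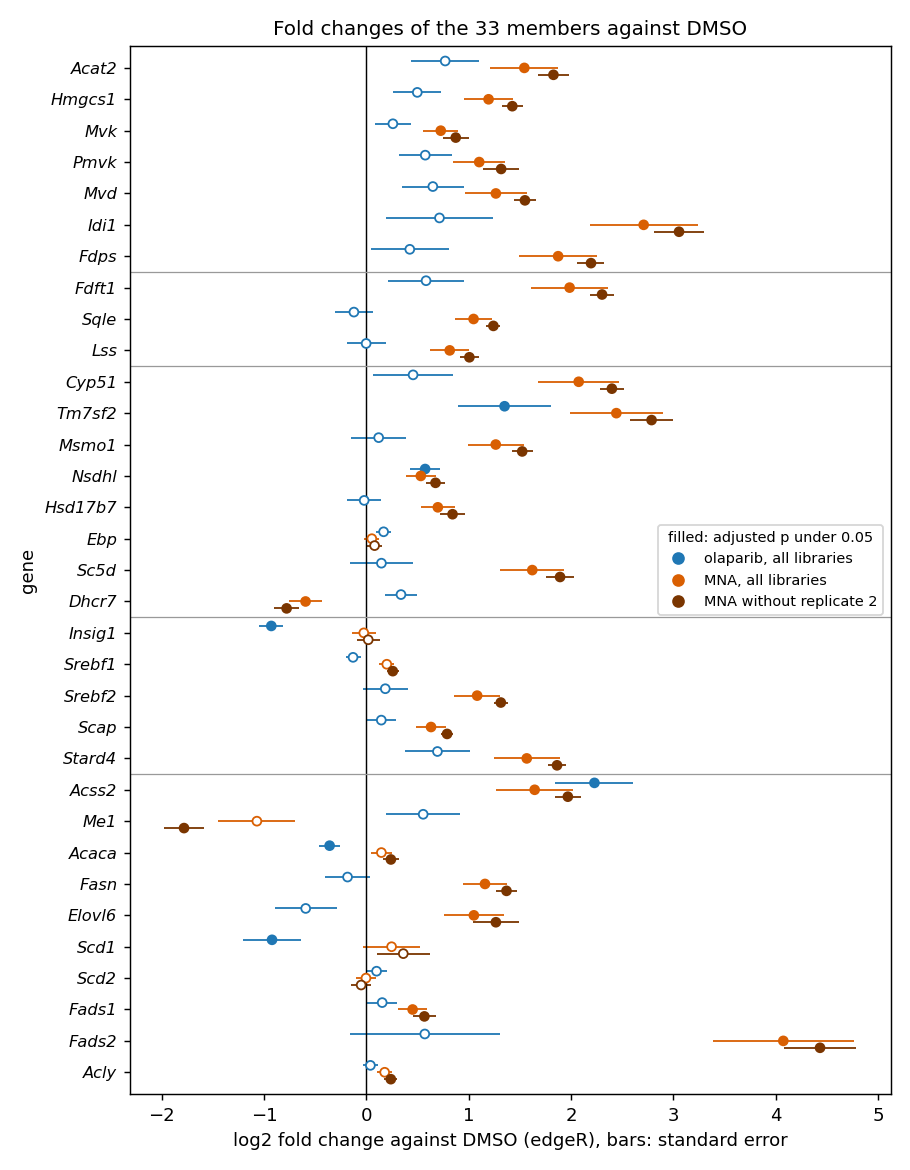
Log2 fold change against DMSO (horizontal axis) of each of the 33 genes (vertical axis, in the order of the heat map), with the standard error of the edgeR fit; blue is olaparib, orange MNA and brown MNA without replicate 2, and filled points were called. Most sterol enzymes lie to the right with MNA, from 0.53 at Nsdhl to 2.71 at Idi1 among those called higher, and their olaparib points lie nearer to 0 except that of Nsdhl, at 0.57.

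Among the regulators, Srebf2 rose with MNA. It was at 64.0, 61.2, 67.3 and 70.8 CPM in DMSO, 75.7, 74.8, 80.6 and 68.1 in olaparib and 170, 66.1, 156 and 166 in MNA. MNA replicate 2 lay within the DMSO range and the other MNA libraries above it, and olaparib overlapped DMSO through 1 library. The change was 1.08 ± 0.22 (log2, adjusted p = 0.0142) with MNA and 0.18 ± 0.22 (adjusted p = 0.558) with olaparib. Without MNA replicate 2 the olaparib change was called (0.18 ± 0.06, adjusted p = 0.0299). Srebf1 was at 80.5, 86.6, 89.8 and 82.4 CPM in DMSO, 71.0, 81.4, 79.4 and 78.3 in olaparib and 101, 84.9, 98.4 and 105 in MNA. The groups overlapped, and neither change was called (MNA 0.20 ± 0.07, adjusted p = 0.0571, olaparib -0.13 ± 0.07, adjusted p = 0.196), although MNA was called without replicate 2 (0.26 ± 0.06, adjusted p = 0.00228). The gene counts do not separate the SREBP-1a and SREBP-1c transcripts of Srebf1.

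Scap, the carrier of the SREBPs, was at 34.2, 35.0, 35.5 and 37.6 CPM in DMSO, 37.7, 40.6, 40.2 and 39.1 in olaparib and 59.3, 35.9, 67.1 and 58.3 in MNA. It rose by 0.63 ± 0.14 (log2, adjusted p = 0.0162) with MNA, which was lost without MNA replicate 3 or 4. With olaparib all 4 libraries lay just above DMSO, yet the change of 0.15 ± 0.14 was not called (adjusted p = 0.471). Stard4, a carrier of sterols between membranes, was at 17.4, 16.2, 18.3 and 16.9 CPM in DMSO, 25.6, 27.3, 31.7 and 26.8 in olaparib and 70.4, 16.05, 56.0 and 61.6 in MNA. MNA replicate 2 lay below all DMSO libraries and the other MNA libraries far above them. Stard4 rose by 1.57 ± 0.32 with MNA (adjusted p = 0.0142), and its 0.69 ± 0.32 with olaparib was called without MNA replicate 2 (adjusted p = 2.6e-05) and not with it (adjusted p = 0.123).

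Insig1, the retention protein and itself a known SREBP target, fell with olaparib. It was at 80.6, 93.0, 120 and 107 CPM in DMSO, 53.4, 51.7, 56.6 and 48.5 in olaparib and 114, 88.7, 91.5 and 99.3 in MNA. All olaparib libraries lay below all DMSO and all MNA libraries, and MNA overlapped DMSO. The change was -0.93 ± 0.12 (log2, adjusted p = 0.000353) with olaparib, called whichever library was left out, and -0.03 ± 0.12 (adjusted p = 0.878) with MNA.

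**Figure D3:**
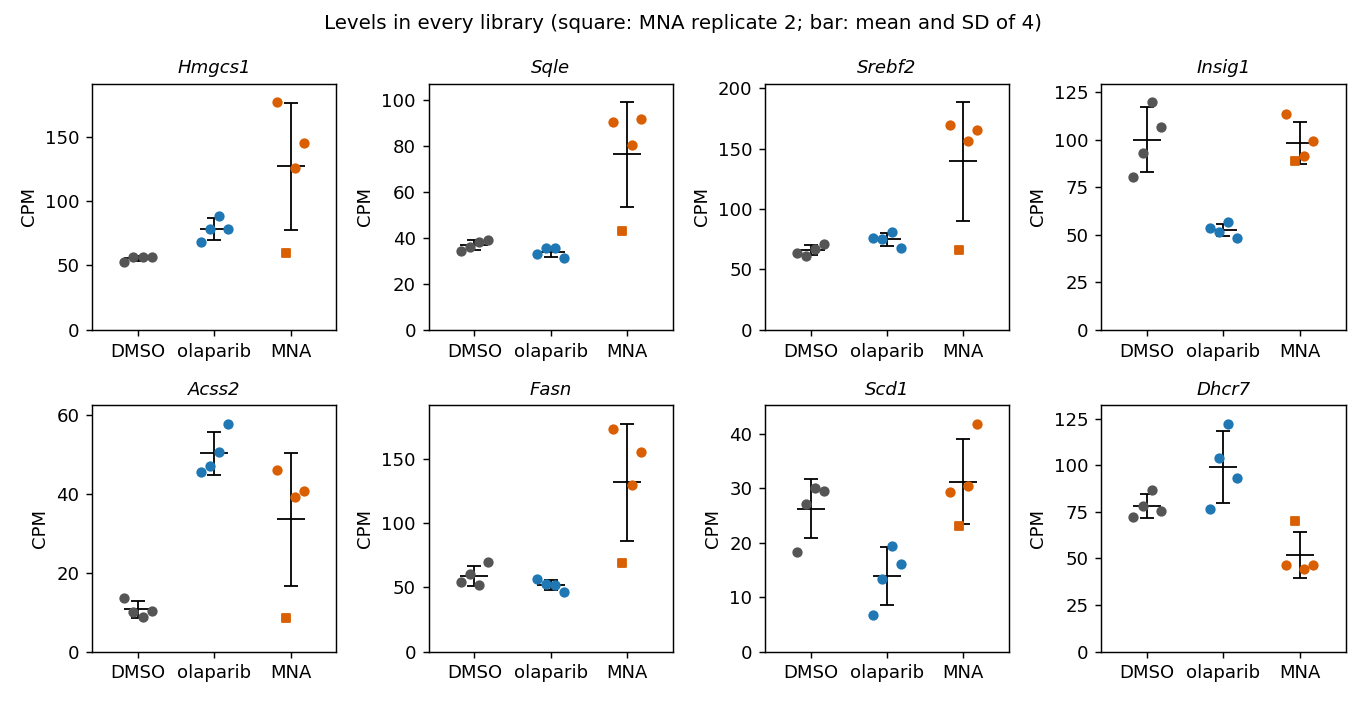
Level in CPM (vertical axes, starting at 0) of 8 genes in each library, by group; points are libraries, the square is MNA replicate 2, and the bar gives the mean and SD of 4 libraries. Insig1 and Scd1 have their lowest mean in olaparib, Acss2 is high in olaparib and in 3 MNA libraries, Dhcr7 is lowest in 3 MNA libraries, and Hmgcs1, Sqle, Srebf2 and Fasn are highest in 3 MNA libraries.

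The fatty acid genes were mixed. Acss2, which makes cytosolic acetyl-CoA from acetate, was at 13.7, 10.1, 8.78 and 10.4 CPM in DMSO, 45.6, 47.1, 50.7 and 57.9 in olaparib and 46.0, 8.60, 39.2 and 40.7 in MNA. Every olaparib library lay above every DMSO library, and so did every MNA library but replicate 2, which was below all of DMSO. Acss2 rose by 2.23 ± 0.38 (log2, adjusted p = 0.00215) with olaparib and by 1.64 ± 0.38 (adjusted p = 0.0165) with MNA, and the MNA call was lost without MNA replicate 1, 3 or 4. The direct difference between the treatments was 0.58 ± 0.36 (adjusted p = 0.273). Acly, the other source of cytosolic acetyl-CoA, was at 215 ± 5.87 CPM in DMSO, 221 ± 15.2 in olaparib and 243 ± 23.3 in MNA, and was called in neither (adjusted p = 0.729 and 0.0884). Without MNA replicate 2, Acly was called higher with MNA (0.24 ± 0.06, adjusted p = 0.00547).

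Fasn, fatty acid synthase, was at 54.4, 60.2, 52.1 and 69.6 CPM in DMSO, 56.3, 53.0, 51.9 and 46.8 in olaparib and 174, 69.1, 130 and 155 in MNA. It rose with MNA by 1.16 ± 0.22 (log2, adjusted p = 0.0142), where only replicate 2 reached into the DMSO range, and its change with olaparib was -0.18 ± 0.22 (adjusted p = 0.545). Acaca, the acetyl-CoA carboxylase that makes malonyl-CoA, was at 46.2, 49.8, 50.9 and 52.1 CPM in DMSO, 35.7, 40.2, 43.6 and 35.6 in olaparib and 61.8, 43.8, 56.0 and 58.7 in MNA. All olaparib libraries lay below all DMSO libraries, and Acaca was called lower with olaparib (-0.36 ± 0.10, adjusted p = 0.0243) and not called with MNA (0.15 ± 0.10, adjusted p = 0.286). The olaparib call of Acaca held in 7 of the 12 fits with 1 library left out and not without DMSO replicates 2, 3 or 4 or olaparib replicates 1 or 4 (highest adjusted p = 0.0709), and without MNA replicate 2 Acaca was called higher with MNA (0.24 ± 0.08, adjusted p = 0.0155). Me1, malic enzyme, a source of NADPH, was at 9.86 ± 2.76 CPM in DMSO and 14.5 ± 1.11 in olaparib, and at 3.17, 10.1, 2.86 and 2.61 in MNA. Its change with olaparib was 0.55 ± 0.36 (adjusted p = 0.269), and 0.55 ± 0.15 without MNA replicate 2 (adjusted p = 0.0100). Its change with MNA was -1.07 ± 0.38 (adjusted p = 0.0502), and -1.78 ± 0.19 without replicate 2 (adjusted p = 3.58e-06).

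The 2 stearoyl-CoA desaturases, which introduce the double bond of oleate, are neighbours on mouse chromosome 19 (GRCm38, Scd2 at chr19:44293674-44306864 and Scd1 at chr19:44394455-44407879). Scd1 was at 18.3, 27.2, 30.1 and 29.5 CPM in DMSO, 6.71, 13.4, 19.4 and 16.1 in olaparib and 29.4, 23.2, 30.4 and 41.9 in MNA. The olaparib and DMSO libraries overlapped through 1 library each, and Scd1 was called lower with olaparib (-0.92 ± 0.28, adjusted p = 0.0304), which did not hold on leaving out any 1 of DMSO replicates 2, 3 and 4 and olaparib replicates 2 and 4. Scd2 was at 477, 616, 583 and 568 CPM in DMSO, 528, 622, 650 and 604 in olaparib and 555, 611, 478 and 594 in MNA. The 3 groups overlapped, and its changes were 0.10 ± 0.10 (adjusted p = 0.489) with olaparib and 0.00 ± 0.10 (adjusted p = 0.976) with MNA. The difference between the changes of these 2 genes was not tested.

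Of the elongation and polyunsaturated branch, Fads2 changed most. Fads2 (chr19:10062765-10101746) and Fads1 (chr19:10182888-10196877) are neighbours on GRCm38. Fads2 was at 0.234, 0.344, 0.436 and 0.984 CPM in DMSO, 0.671, 1.14, 0.631 and 0.627 in olaparib and 13.2, 0.967, 7.49 and 13.4 in MNA. MNA replicates 1, 3 and 4 were far above every other library, which all had 5 to 31 counts. Its rise with MNA was 4.08 ± 0.69 (log2, adjusted p = 0.0142), and 4.43 ± 0.35 without replicate 2. Fads1, the delta-5 desaturase, rose with MNA by 0.45 ± 0.14 (adjusted p = 0.0379), a call that held in 2 of the 12 fits with 1 library left out. Elovl6 rose with MNA by 1.05 ± 0.29 (adjusted p = 0.0254), which held in 6 of the 12 fits with 1 library left out and not without DMSO replicates 1, 3 or 4 or MNA replicates 1, 3 or 4. Its -0.59 ± 0.30 with olaparib was not called with all libraries (adjusted p = 0.162) and was called without MNA replicate 2 (-0.60 ± 0.23, adjusted p = 0.0489).

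With olaparib, 3 of the 33 genes were called higher (Acss2, Nsdhl and Tm7sf2) and 3 lower (Acaca, Insig1 and Scd1), where 14.3% of all tested genes were called higher and 12.8% lower. The median log2 fold change was 0.44 for the sterol enzymes, 0.15 for the regulator and transport genes and 0.07 for the fatty acid genes. All olaparib libraries lay above all DMSO libraries for 12 of the 33 genes and below for 3, where 20.7% and 20.3% of all tested genes did so, and 9 of the 12 were sterol enzymes. The fit shares 1 estimate of the spread over the 3 groups, and its common dispersion was 0.0333 with all libraries and 0.0123 without MNA replicate 2. Without MNA replicate 2, 15 of the 33 were called higher and 4 lower (22.5% and 21.2% of all genes), and the sterol enzymes called higher went from 2 to 11, while the sterol median stayed at 0.44. The 11 were Acat2, Hmgcs1, Pmvk, Mvd, Idi1, Fdps, Fdft1, Cyp51, Tm7sf2, Nsdhl and Dhcr7, with log2 fold changes of 0.34 to 1.36. In a fit of olaparib and DMSO alone, 19 of the 33 were called, where 45.4% of all tested genes were called. Same-numbered olaparib and DMSO libraries deviated together from their group means, though no label pairs them. With the replicate number as a block Tm7sf2 was no longer called (adjusted p = 0.0529), so that 1 sterol enzyme was called higher (15.4% of all genes). DESeq2 called the same number of sterol enzymes higher as edgeR, 2 with olaparib, where it called 16.8% of all genes higher, and 16 with MNA, where it called 18.9%.

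Both treatments were compared with the same 4 DMSO libraries, so their changes are given side by side and no overlap is counted. The direct comparison of olaparib with MNA does not use those libraries for its difference. There 2 of the 33 genes were called higher in olaparib (Dhcr7 and Me1) and 18 lower, where 10.9% of all genes were called higher and 10.9% lower. The 18 were 9 sterol enzymes, 4 regulator and transport genes and 5 fatty acid genes. Among the largest differences were those of Fads2 (-3.50 ± 0.67, adjusted p = 0.00349), Idi1 (-1.996 ± 0.51, adjusted p = 0.0160) and Elovl6 (-1.64 ± 0.30, adjusted p = 0.00300), and Me1 was higher in olaparib by 1.63 ± 0.38 (adjusted p = 0.0105). Without MNA replicate 2, 2 were higher and 27 lower, where 21.5% and 20.7% of all genes were called. The 4 then not called were Nsdhl, Ebp, Acss2 and Scd2.

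Sterol and fatty acid genes were compared within each library by the mean log2 CPM of the 18 sterol enzymes minus that of the 10 fatty acid genes. This difference was -0.89, -1.14, -1.06 and -1.20 in DMSO, -0.72, -0.99, -0.79 and -0.82 in olaparib and -0.49, -1.12, -0.51 and -0.48 in MNA. The 3 MNA libraries other than replicate 2 lay above all others, and the olaparib and DMSO ranges overlapped through 1 library each. Between libraries of the same number, which no label pairs, olaparib was higher than DMSO in 4 of 4, by 0.17, 0.15, 0.27 and 0.38. With so small an overlap, this count adds little to the ranges. The mean was -1.07 ± 0.13 (SD, n = 4) in DMSO, -0.83 ± 0.11 in olaparib and -0.65 ± 0.31 in MNA, or -0.49 ± 0.02 (n = 3) without replicate 2. No test was made over these means. The fatty acid mean weighs each gene alike, and few genes moved far. Relative to its DMSO mean, Acss2 lay at 2.09 to 2.44 (log2) in olaparib and 1.88 to 2.11 in MNA replicates 1, 3 and 4. In those MNA libraries Fads2 lay at 3.88 to 4.71 and Me1 at -1.85 to -1.58. Fads2, with few counts, spread from -0.73 to 1.04 within DMSO.

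**Figure D4:**
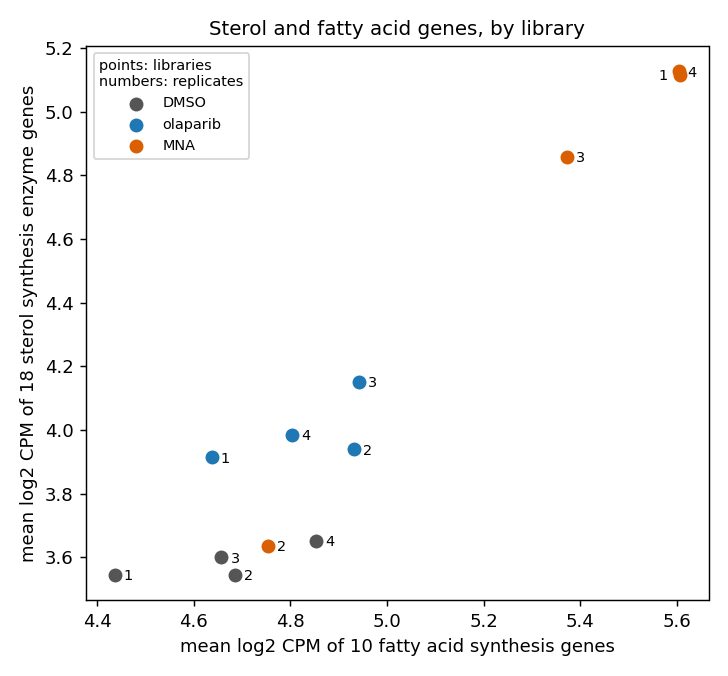
Mean log2 CPM of the 18 sterol synthesis enzyme genes (vertical axis) against that of the 10 fatty acid synthesis genes (horizontal axis) in each library; points are libraries, colours are groups and numbers are replicates. MNA replicates 1, 3 and 4 lie at 4.86 to 5.13 on the sterol axis, olaparib at 3.91 to 4.15, and DMSO with MNA replicate 2 at 3.54 to 3.65.

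Of 34 further genes of the pathway, its transport and its control, 32 were tested. With MNA 12 were called higher and 6 lower, where 16.3% and 12.3% of all tested genes were, and with olaparib 0 were called higher and 6 lower, where 14.3% and 12.8% were. Lbr, the other sterol delta-14 reductase, was at 8.43 ± 0.739 CPM in DMSO and 20.1 ± 6.74 in MNA (log2 1.25 ± 0.23, adjusted p = 0.0142). Hacd3, a dehydratase of fatty acid elongation, was at 37.3 ± 1.73 CPM in DMSO and 61.5 ± 13.1 in MNA (0.72 ± 0.13, adjusted p = 0.0142). The 5 with the smallest p in olaparib were all lower. Erlin1, which binds SREBP complexes in the endoplasmic reticulum, was at 31.8 ± 2.42 CPM in DMSO and 19.5 ± 0.927 in olaparib (-0.71 ± 0.08, adjusted p = 0.000134). Mbtps1 and Mbtps2, the proteases that release the active SREBP fragment, fell with olaparib by 0.41 ± 0.06 (adjusted p = 0.00127) and by 0.39 ± 0.10 (adjusted p = 0.0175) on the log2 scale. Rnf145, a sterol-responsive ubiquitin ligase, fell by 0.53 ± 0.12 (adjusted p = 0.00749) and Elovl1, an elongase of very long chains, by 0.25 ± 0.06 (adjusted p = 0.0129). Without MNA replicate 2 the calls in this list were 14 higher and 9 lower with MNA (27.2% and 26.9% of all genes), and 6 higher and 12 lower with olaparib (22.5% and 21.2%).

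Reads of 9 of the 33 genes may be shared with another gene, since over 10% of the 31-base words of their transcripts also occur elsewhere in the annotation. The share was 43.8% for Acat2, 36.9% for Me1, 33.5% for Acaca, 31.9% for Fdft1, 27.9% for Fdps, 27.1% for Idi1, 13.3% for Tm7sf2, 13.1% for Hmgcs1 and 11.3% for Scap, and their values carry that uncertainty. The gene sharing most was Acat3 for Acat2 (43.8%), Gm7049 for Me1 (28.7%), Gm5182 for Acaca (31.7%), Ctsb on the opposite strand for Fdft1 (17.6%), Gm43738 for Fdps (24.6%), Gm13502 for Idi1 (18.4%) and Vps51 for Tm7sf2 (10.7%). Ctsb, a cathepsin gene at 17654 CPM in DMSO, was not called with MNA (-0.21, adjusted p = 0.134) but was called lower without MNA replicate 2 (-0.27, adjusted p = 0.00856). Vps51 was called in neither (0.02, adjusted p = 0.789, and 0.04, adjusted p = 0.637).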

How the data were processed

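For each library the values deposited by the authors are raw counts of reads on Ensembl genes, with no normalization. Per the labels and the study's methods, stranded mRNA libraries were sequenced single-end and aligned with STAR 2.5.2b to GRCm38.p5 (mm10), and which strand column of STAR was kept is not given in the sources used here. The 12 files, 1 per sample, were joined, and gene names, positions and exon lengths came from GENCODE (GRCm38), which named 34490 of 35275 IDs. Genes were filtered with filterByExpr (minimum count 10, minimum total 15), which left 12849, and tested with edgeR 4.0.16 in R 4.3.3 (TMM, quasi-likelihood F test, 12 libraries in 1 fit, no block, Benjamini-Hochberg over all tested genes, called under 0.05). The SE is the log2 fold change over the root of F. Mean log2 CPM used a prior count of 2. The scripts were tested on simulated data. Figures used Python 3.11.15.

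All 33 genes are named, with values in every library for 9 chosen genes and, in each list and comparison with DMSO, the 3 with the smallest p. Of the wider list the called ones may be named, at most the 5 with the smallest p per comparison, and some of these are not reported here. The members and lists were chosen with earlier results of these data known. The alternatives were DESeq2 1.42.0, other normalizations, other filters, a replicate block, 2 groups alone and each library left out. The study's legend gives 4 donor mice. Olaparib and DMSO libraries of the same number deviated together from their group means (r over genes 0.227, 0.172, 0.225 and 0.408 for numbers 1 to 4). They were read as pairs for this reason alone, since no label states a pairing. For MNA and DMSO r was 0.242, 0.114, -0.009 and 0.277. These values cannot decide a pairing, since the MNA mean includes replicate 2, which lay with the DMSO libraries.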

Additional observations from a re-analysis of the deposited data

Results flagged for a closer look

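In 99 groups of 4 libraries (33 genes in 3 groups), 9 held a library that lay far from the others. The measure is its gap to its nearest neighbour over the whole range of the group, read against Dixon's 95% limit for 4 samples, which chance passes in about 1 in 20 groups. MNA replicate 2 was that library for Acat2 (0.870), Mvd (0.921), Tm7sf2 (0.874), Srebf2 (0.870), Dhcr7 (0.913) and Me1 (0.926). It was low for the first 4 and high for Dhcr7 and Me1. The same library was low for the mean of the 5 regulator and transport genes (0.871) and for the sterol minus fatty acid difference (0.941). DMSO replicate 1 was low for Hmgcs1 (0.931) and for Sc5d (0.962), and olaparib replicate 2 was high for Fads2 (0.914). DMSO replicate 1 also held the highest neutrophil and erythroid marker sums of its group, 10.6 and 3.09 CPM, whose part was not tested.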

How the results depend on the processing

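No change of a member reversed where it was called. DESeq2, RLE, upper quartile and library-total scaling and both filters kept 16 sterol enzymes higher with MNA and 2 with olaparib. Fatty acid genes called lower with MNA went from 0 to 1 (Me1) with DESeq2, RLE, upper quartile normalization, no filter, a mean of at least 50 counts and the replicate block. The replicate block treats same-numbered libraries as pairs, which no label states. It left 1 sterol enzyme higher with olaparib in place of 2. Beside Me1 with MNA, it moved no other count of the gene groups or of all genes by over 1.5 times. For MNA and DMSO the correlations cannot decide a pairing.

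The library set mattered most. With 2 groups alone, olaparib against DMSO gave 2886 genes higher and 2834 lower, with 11 sterol enzymes, 3 regulator and transport genes and 2 fatty acid genes higher. MNA against DMSO then gave 0 genes higher and 0 lower, so 0 sterol enzymes higher and 0 lower, 0 regulator and transport genes and 0 fatty acid genes, with 4728 genes at an unadjusted p under 0.05. Olaparib against MNA then gave 847 genes lower. With the replicate block and without MNA replicate 2, olaparib against DMSO gave 3154 higher and 2962 lower, with 12 sterol, 2 regulator and 2 fatty acid genes higher. MNA against DMSO gave 3618 and 3547 with 1 fatty acid gene lower, and olaparib against MNA gave 2952 and 2790 with 15 sterol genes lower and 2 fatty acid genes higher. Leaving out MNA replicates 2 and 4, chosen after the marker counts of replicate 4 were seen, gave 2874 and 2838 (11 sterol, 2 regulator and 2 fatty acid genes higher), 3239 and 3080 (1 fatty acid gene lower) and 2367 and 2440 (15 sterol genes lower).

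With each library left out in turn, genes called with olaparib were 1231 to 2935 higher and 921 to 2759 lower. Sterol enzymes higher were 1 to 11, regulator and transport genes higher 0 to 2, and fatty acid genes 1 to 2 higher and 0 to 3 lower. With MNA, 408 to 3543 genes were higher and 55 to 3499 lower. Sterol enzymes were 8 to 16 higher and 0 to 1 lower, regulator and transport genes 2 to 4 higher, and fatty acid genes 2 to 7 higher and 0 to 1 lower. Olaparib against MNA gave 987 to 2805 higher and 916 to 2698 lower, with 7 to 15 sterol, 3 to 5 regulator and 5 to 7 fatty acid genes lower. The highest counts of all genes came without MNA replicate 2, and the sterol enzymes higher with MNA were 11, 9 and 8 without MNA replicates 1, 3 and 4. The median log2 fold change with MNA was 1.12 to 1.47 for sterol enzymes, 0.53 to 0.79 for regulator and transport genes and 0.26 to 0.46 for fatty acid genes, highest without MNA replicate 2. With olaparib these were 0.37 to 0.48, 0.13 to 0.17 and 0.03 to 0.09.

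Depth limited few values, since only Fads2 had fewer than 30 counts in a library. Where nothing in the labels ties libraries to separate mice, p-values measure only the spread between these libraries.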
